A study of Mus musculus with 6 samples.

Results

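Circulating miRNAs were compared between FK506-treated and untreated recipients of a sciatic nerve allograft on postoperative day 3, with 1 small RNA library on each side. The FK506 animals received tacrolimus under the skin at 1 mg/kg per day and the other animals received none. Both groups carried a graft of 1 cm of Balb/c donor nerve in a gap of 0.5 cm, so no animal without a graft enters the comparison. The mice were males aged 10 to 12 weeks. The labels give C57BL/6 as the recipients' strain, although one passage of the protocol names Balb/c recipients. Donor and recipient would be of 1 strain under the second reading. Each group had 3 animals at each day according to the labels, which do not say whether the animals' RNA was pooled for sequencing. The samples are called serum, although the blood is described as drawn into tubes with anticoagulant. The entries described are all mature miRNAs with 50 or more reads in at least 1 of the 2 libraries, which holds for 99 of the 1281 entries of the count table. Because each group is 1 library, no p-value can be given and no difference has a replicate check.

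A miRNA is a short RNA that guides Argonaute proteins to messenger RNAs, mainly through its seed, bases 2 to 8 from the 5′ end. Cell-free miRNAs in blood travel in vesicles and protein complexes, and blood cells are their main source, with red cells contributing much of the total. FK506 blocks calcineurin and with it the activation of T cells, the cells that reject an allograft. In bulk serum, fewer cells of a type and less RNA released per cell cannot be told apart.

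The sequences below belong to some of the miRNAs named in the day 3 comparison. They are RefSeq mature sequences on GRCm38.p6, written 5′ to 3′ with the seed in capitals, and 81 of the 97 entries outside the dominant pair described below were matched by name. Among those not matched were miR-150-5p, which had the highest ratio, and miR-328-3p. The seed and GC summaries below therefore leave them out. The first set is the let-7 family, shown because 8 miRNAs with 1 seed fell on both sides of equality.
let-7a-5p: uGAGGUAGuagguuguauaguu
let-7f-5p: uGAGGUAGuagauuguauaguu
let-7i-5p: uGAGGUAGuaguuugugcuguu
let-7d-5p: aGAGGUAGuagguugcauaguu
miR-98-5p: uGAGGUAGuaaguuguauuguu
let-7c-5p: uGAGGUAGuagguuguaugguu
let-7g-5p: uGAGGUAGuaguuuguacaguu
let-7b-5p: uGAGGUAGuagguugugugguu

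Counted from 1 at the 5′ end of let-7a-5p, let-7f-5p differs by G12A, let-7c-5p by A19G, and let-7b-5p by A17G and A19G. The other differences are U1A and U16C in let-7d-5p, G12U and U18C in let-7g-5p, G12U, A17G, U18C and A19U in let-7i-5p, and G11A and A19U in miR-98-5p. The second set pairs miRNAs past 2-fold with a relative of the same seed that was not.
miR-107-3p: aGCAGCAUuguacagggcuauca
miR-103-3p: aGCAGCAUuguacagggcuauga
miR-215-5p: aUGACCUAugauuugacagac
miR-192-5p: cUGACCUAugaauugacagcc
miR-146b-5p: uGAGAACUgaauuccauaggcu
miR-146a-5p: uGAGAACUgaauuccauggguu
miR-30a-5p: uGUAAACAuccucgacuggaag
miR-30e-5p: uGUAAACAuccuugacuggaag
miR-15b-5p: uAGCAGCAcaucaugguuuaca
miR-16-5p: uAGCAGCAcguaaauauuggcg

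Within this set miR-107-3p differs from miR-103-3p by G22C alone, and miR-30e-5p differs from miR-30a-5p by C13U alone. A read that ends before base 22 therefore cannot separate miR-107-3p from miR-103-3p, and the sources used here do not say how the authors assigned such reads. The third set holds other miRNAs past 2-fold, with the 3p arm of miR-215 for comparison with its 5p arm above.
miR-199a-3p: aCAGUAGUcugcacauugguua
miR-205-5p: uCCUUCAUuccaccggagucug
miR-99b-5p: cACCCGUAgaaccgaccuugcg
miR-181a-5p: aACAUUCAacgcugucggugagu
miR-215-3p: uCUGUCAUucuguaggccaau

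The libraries totalled 4992998 counts in FK506 and 5137675 in untreated serum. The red cell miRNA miR-486-5p had 2448326 reads in FK506 and 2494607 in untreated serum. The entry miR-3107-5p, which lies antisense at the same locus, had 2440098 in FK506 and 2482905 in untreated serum. Together they took 97.9% of the FK506 total and 96.9% of the untreated total, which left 104574 and 160163 reads for everything else. The near-equal counts of the pair leave it unknown whether reads were counted under both entries, in which case these percentages and the library totals count them repeatedly. Each of the other 97 miRNAs is therefore given as a percentage of these remaining reads, and its ratio is FK506 over untreated with an exact 95% binomial interval. These intervals describe the counting error of reads alone and leave out any spread between animals. No molecular identifiers mark the reads, so copies of the same molecule cannot be told from separate molecules. A count of 0 reads allows a share of up to 0.00287% in FK506 and 0.00187% in untreated serum. TMM scaling, which estimates library size from the bulk of miRNAs, moved all log2 ratios by 0.03, whereas scaling to the library total moved them by -0.57.

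The myeloid and platelet marker miR-223-3p had 13 reads in FK506 and 10 in untreated serum, and the endothelial miR-126-3p had 17 in FK506 and 27 in untreated serum. Several markers of brain, pancreas and muscle were at or near 0, while others of the same tissues were not. The neuronal miR-124-3p and the glial miR-219-2-3p had 0 reads in both libraries, and miR-9-5p had 0 in FK506 and 1 in untreated serum. The pancreatic miR-216a-5p and miR-217-5p and the muscle miR-206-3p had 0 in both. In contrast the neuron-enriched miR-128-3p had 144 reads in FK506 and 96 in untreated serum. For the islet miR-375-3p the counts were 1704 in FK506 and 1327 in untreated serum. For the muscle miR-133a-3p they were 618 in FK506 and 945 in untreated serum. Red cell lysis is often gauged by miR-451a relative to miR-23a-3p, and this ratio was 23.5 in FK506 (interval 16.6 to 34.4) and 21.0 in untreated serum (16.3 to 27.6), so the 2 intervals overlapped. For miR-451a itself the counts were 776 in FK506 and 1326 in untreated serum, a share 0.896 times as large in FK506 (0.819 to 0.980).

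**Figure D1:**
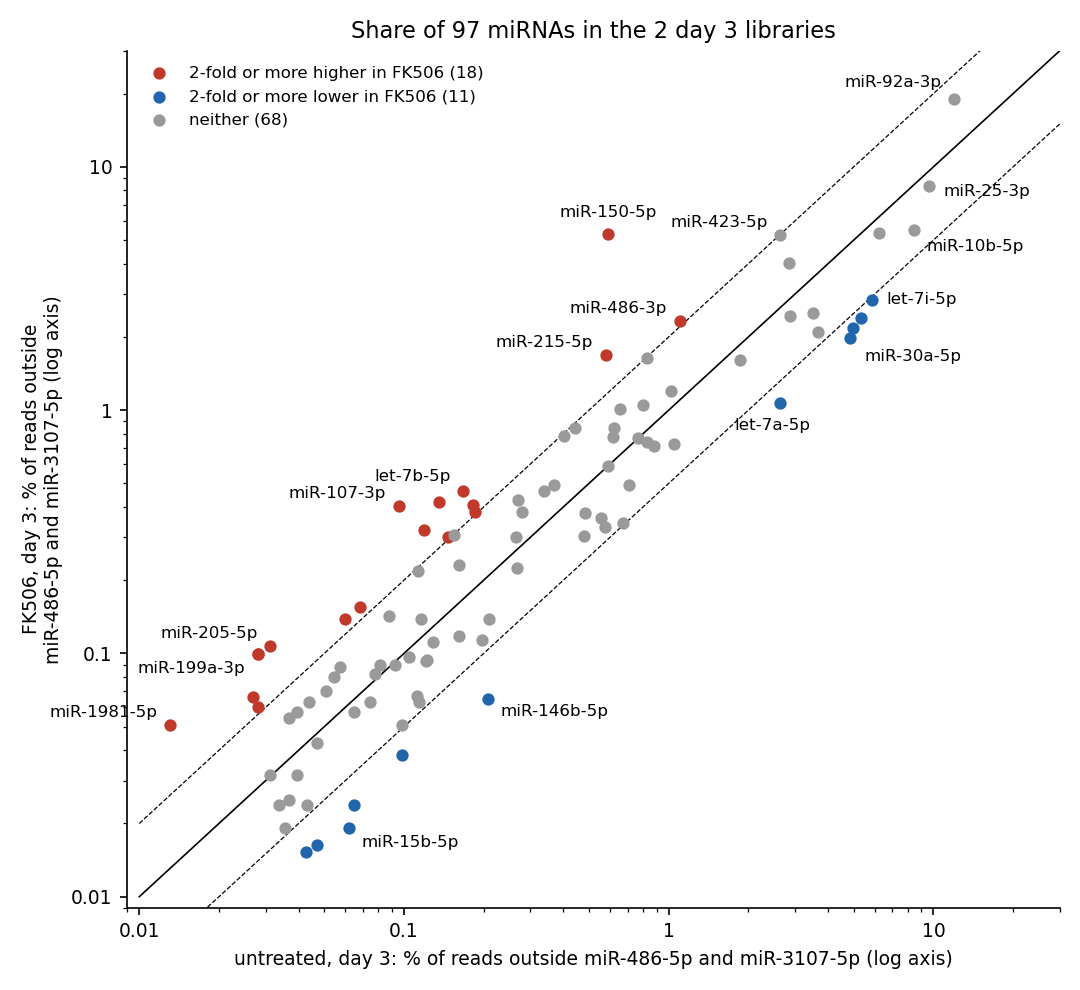
Share of each of 97 miRNAs among the reads outside miR-486-5p and miR-3107-5p, with FK506 on the vertical and untreated on the horizontal log axis, 1 library each. The solid line marks equal shares and the dashed lines 2-fold; 18 miRNAs lie above the upper dashed line, with miR-150-5p farthest from it, and 11 lie below the lower one.

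Of the 97 miRNAs, 18 were at least 2-fold higher in FK506 (18.6%) and 11 at least 2-fold lower (11.3%), while 44 lay within 1.5-fold. With TMM 22 miRNAs were higher (22.7%) and 11 lower (11.3%). On the scale of the library total 7 passed on the high and 30 on the low side, and as shares outside the 10 most abundant entries 11 and 20. TMM fitted on the 2 day 3 libraries alone gave 14 and 15, and median-of-ratios factors 13 and 16. The split between higher and lower thus depended on the scaling, which moves all log2 ratios by 1 amount and leaves their order as it is. The quartiles of the log2 ratios were -0.57 and 0.69, and 2 miRNAs passed 4-fold, both higher. The 18 higher miRNAs made up 12.8% of the remaining reads in FK506 and 3.58% in untreated serum. The 11 lower ones made up 10.6% in FK506 and 24.1% in untreated serum.

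The lymphocyte miRNA miR-150-5p, which is abundant in resting B and T cells, had the highest ratio of the 97. It had 5531 reads in FK506 and 948 in untreated serum, or 5.29% against 0.592% of the remaining reads, a ratio of 8.94 (8.34 to 9.58). Its gene Mir150 lies on chromosome 7 from 45121757 to 45121821 on the plus strand of GRCm38, outside any other annotated gene. Other leukocyte miRNAs were closer to equality and lay on both sides of it. Of the 8 measured members of the lymphocyte list, 2 had log2 ratios above 0 and 6 below. The pan-leukocyte miR-142-5p had 822 reads in FK506 and 642 in untreated serum, a ratio of 1.96 in shares (1.77 to 2.18) that was just under 2-fold. Its other arm miR-142-3p was below the floor, with 19 reads in FK506 and 30 in untreated serum (0.97-fold, 0.516 to 1.78). The T cell miRNA miR-342-3p had 60 reads in FK506 and 63 in untreated serum (1.46-fold, 1.01 to 2.11). Its other arm miR-342-5p had 1 read in FK506 and 8 in untreated serum (0.191-fold, 0.00431 to 1.43). The activation-induced miR-155-5p had 6 reads in FK506 and 8 in untreated serum, too few for a comparison. Set against miR-142-5p within the same library, miR-150-5p was 6.73 times as abundant in FK506 (6.25 to 7.25) and 1.48 times in untreated serum (1.33 to 1.63).

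The second highest ratio was that of miR-107-3p, an intronic miRNA of the pantothenate kinase gene Pank1, with 422 reads in FK506 and 153 in untreated serum (4.22-fold, 3.50 to 5.12). Its near-copy miR-103-3p, made from introns of related kinase genes, had 516 reads in FK506 and 593 in untreated serum (1.33-fold; a log2 ratio of 0.41, which became -0.16 scaled to the library total). The ratio of miR-107-3p to miR-103-3p inside a library was 0.818 in FK506 and 0.258 in untreated serum. The untreated day 3 share of miR-107-3p, 0.0955%, was the lowest of all 6 libraries of the series, while the FK506 day 3 share of 0.404% lay below the 0.443% and 0.521% of FK506 at days 7 and 14. For miR-107-3p it was the untreated value that stood apart at day 3, but these 2 libraries chose it, so nothing is read from this.

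Of 3 measured epithelial, pancreatic and gut miRNAs, 2 were past 2-fold higher in FK506, against 18.6% of all 97. The intestinal miR-215-5p had 1757 reads in FK506 and 925 in untreated serum, or 1.68% against 0.578% (2.91-fold, 2.68 to 3.15). Its relative of the same seed, miR-192-5p, was placed in the liver list, so the count of 2 depends on list membership. That relative had 1256 reads in FK506 and 1627 in untreated serum. Its log2 ratio was 0.24, or -0.33 scaled to the library total. The keratinocyte miRNA miR-205-5p had 112 reads in FK506 and 50 in untreated serum (3.43-fold, 2.44 to 4.89). The islet and gut endocrine miR-375-3p had 1704 reads in FK506 and 1327 in untreated serum, a ratio of 1.97 (1.83 to 2.11) that stood just below 2-fold. The 3 measured members of the epithelium, pancreas and gut list had a median log2 ratio of 1.54, against 0.00 over all 97 miRNAs, and 0.76 with a floor of 1 read. The 9 members below the floor of 50 reads had 32 reads in sum in FK506 and 45 in untreated serum.

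Among vascular and mesenchymal miRNAs, miR-199a-3p had 104 reads in FK506 and 45 in untreated serum (3.54-fold, 2.47 to 5.14). The entry miR-199b-3p has the same mature sequence and the same counts, so the pair is 1 measurement. The endothelial and platelet miRNA miR-126-5p, from the Egfl7 gene on chromosome 2, had 316 reads in FK506 and 234 in untreated serum, a log2 ratio of 1.05. Its other arm miR-126-3p was below the floor, with 17 reads in FK506 and 27 in untreated serum (0.964-fold, 0.493 to 1.83). The smooth muscle miRNA miR-143-3p stayed under the threshold, with 1054 reads in FK506 and 1047 in untreated serum (1.54-fold, 1.41 to 1.68). The Hox cluster miRNAs miR-10a-5p and miR-10b-5p were on the other side of equality, at -0.81 and -0.62. The list held 3 higher and 0 lower of 7 measured members, 2 of the 3 being the identical entries (18.6% and 11.3% over all 97), with a median of 0.62, which became 0.00 with the 2 identical entries counted once. Its summed share was 9.22% in FK506 and 13.1% in untreated serum, and miR-10b-5p alone held 5.49% in FK506 and 8.43% in untreated serum.

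The other miRNAs past 2-fold on the high side were miR-1981-5p, miR-328-3p, let-7b-5p, miR-99b-5p, miR-144-3p, miR-128-3p, miR-92b-3p, miR-484, miR-434-3p, miR-486-3p and miR-423-3p. Of these, miR-328-3p had 440 reads in FK506 and 217 in untreated serum (3.11-fold, 2.63 to 3.67). The neuron-enriched miR-128-3p had 144 reads in FK506 and 96 in untreated serum (2.30-fold, 1.76 to 3.01), although the other neuron and glia list members were below the floor. The imprinted miR-434-3p, whose precursor lies antisense to the coding exon of Rtl1 on chromosome 12, had 63 reads in FK506 and 45 in untreated serum (2.14-fold, 1.44 to 3.22). For miR-1981-5p, with 53 reads in FK506 and 21 in untreated serum, the interval was widest, at 2.29 to 6.75-fold. All 18 intervals lay above equality and 10 lay wholly above 2-fold.

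**Figure D2:**
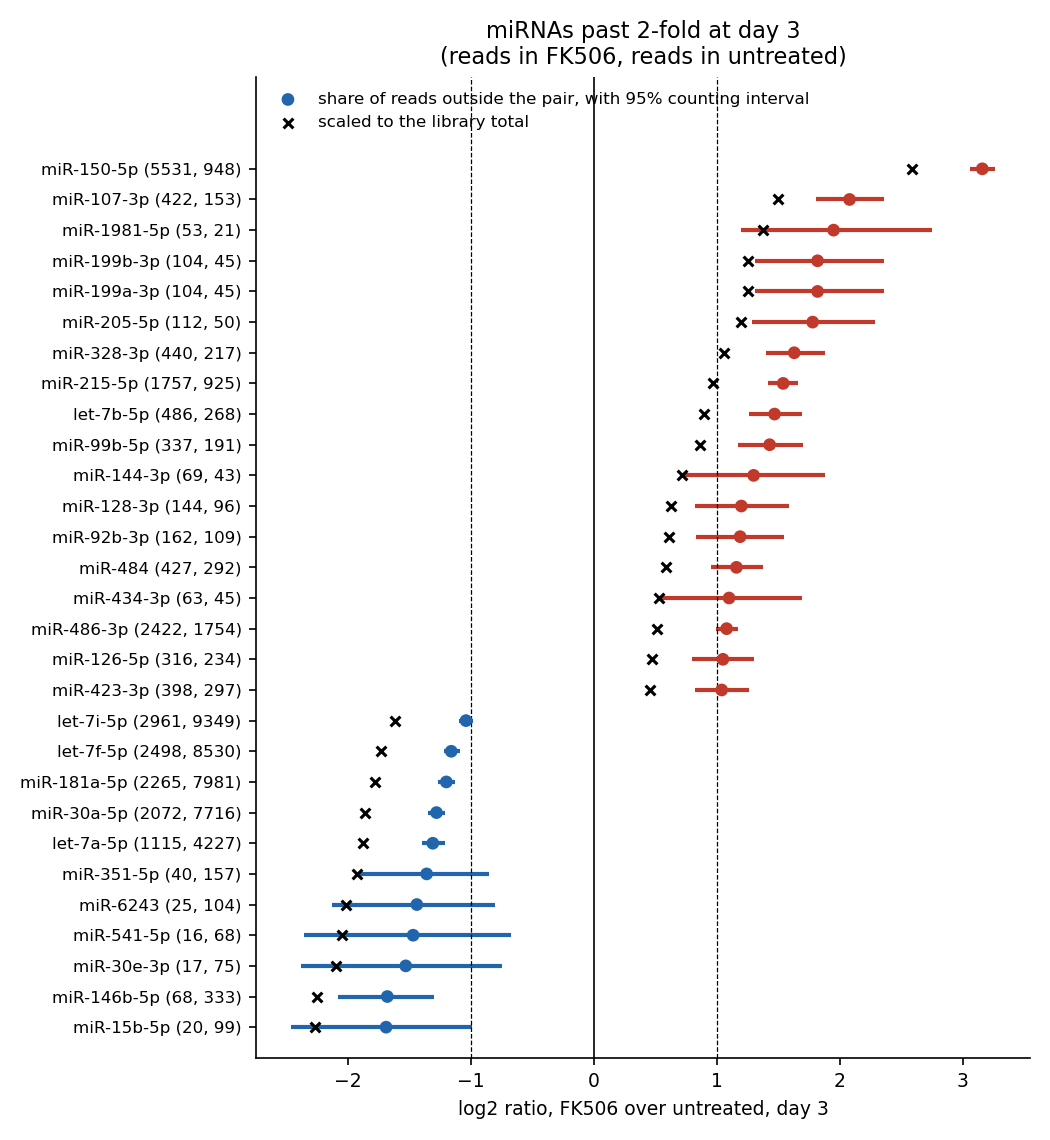
log2 ratio of FK506 over untreated at day 3 for the 29 miRNAs past 2-fold, with reads in FK506 and in untreated serum in brackets. Points are ratios of shares outside the pair, bars their 95% counting intervals, and crosses the same ratio scaled to the library total; under that scaling each cross sits 0.57 to the left of its point, and 7 of the 18 higher miRNAs stay past 2-fold.

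Of the lower miRNAs, miR-146b-5p had 68 reads in FK506 and 333 in untreated serum, or 0.0650% against 0.208%, 3.20-fold lower (2.46 to 4.21). miR-146 family miRNAs are induced by NF-kB and restrain Toll-like receptor and cytokine signalling. The relative miR-146a-5p had 97 reads in FK506 and 194 in untreated serum, a log2 ratio of -0.38. In FK506 miR-146b-5p was 0.701 times as abundant as miR-146a-5p (0.506 to 0.966), and in untreated serum 1.72 times (1.43 to 2.06). Members of the inflammation list lay on both sides of equality. miR-125b-5p had 66 reads in FK506 and 183 in untreated serum, 1.81-fold lower (1.36 to 2.44), and miR-221-3p was at 0.69. Of the 7 measured members of that list 0 were higher, 1 was lower and the median was 0.00, with miR-21a-5p at 802 reads in FK506 and 1226 in untreated serum, a log2 ratio of 0.00.

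The lowest ratio was that of miR-15b-5p, a cell cycle regulator encoded with miR-16 in an intron of Smc4 on chromosome 3. It had 20 reads in FK506 and 99 in untreated serum (3.23-fold lower, 1.98 to 5.52). The co-transcribed miR-16-5p, which is also made from a second locus on chromosome 14, had 2549 reads in FK506 and 4598 in untreated serum, a log2 ratio of -0.24. Its chromosome 14 partner miR-15a-5p was at -0.04, with 94 reads in FK506 and 148 in untreated serum.

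The abundant miR-30a-5p and miR-181a-5p were lower by similar factors. miR-30a-5p, which is broadly expressed, had 2072 reads in FK506 and 7716 in untreated serum, or 1.98% against 4.82% (2.43-fold lower, 2.32 to 2.55). miR-181a-5p, which tunes T cell receptor sensitivity in thymocytes and is also made in brain and vessels, had 2265 reads in FK506 and 7981 in untreated serum (2.30-fold lower, 2.20 to 2.41). All 4 measured miR-30 members and all 4 miR-181 members had ratios below 0 on the log2 scale under each scaling, with medians of -0.58 and -0.61, and on the share scale 1 of each family passed 2-fold. In the miR-30 family miR-30c-5p was at -0.79, miR-30e-5p at -0.36 and miR-30d-5p at -0.21. In the miR-181 family miR-181b-5p was at -0.63, miR-181c-5p at -0.60 and miR-181d-5p at -0.46.

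Of the lower miRNAs with fewest reads, miR-15b-5p is given above. miR-30e-3p had 17 reads in FK506 and 75 in untreated serum, and miR-541-5p of the imprinted Dlk1-Dio3 region had 16 in FK506 and 68 in untreated serum. miR-6243 had 25 in FK506 and 104 in untreated serum, and miR-351-5p, a mouse relative of miR-125, had 40 in FK506 and 157 in untreated serum. Their intervals all stayed below equality. Of the 11 lower miRNAs 5 had an interval wholly past 2-fold.

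The let-7 family, which promotes differentiation and restrains proliferation, was divided. let-7a-5p had 1115 reads in FK506 and 4227 in untreated serum (2.48-fold lower, 2.32 to 2.65). let-7f-5p had 2498 reads in FK506 and 8530 in untreated serum (2.23-fold lower, 2.13 to 2.33). let-7i-5p had 2961 reads in FK506 and 9349 in untreated serum (2.06-fold lower, 1.98 to 2.15). In contrast let-7b-5p made up 0.465% of the remaining reads in FK506 and 0.167% in untreated serum (2.78-fold higher, 2.39 to 3.24). Between them lay let-7d-5p at -0.66, miR-98-5p at -0.18, let-7c-5p at 0.50 and let-7g-5p at 0.92. On the library-total scale let-7c-5p was at -0.08, while let-7b-5p and let-7g-5p stayed above 0. Ratios taken inside each library do not depend on scaling: let-7c-5p was 3.77 times as abundant as let-7a-5p in FK506 (3.53 to 4.03) and 1.08 times in untreated serum (1.04 to 1.13). The corresponding ratios of let-7b-5p to let-7a-5p were 0.436 in FK506 (0.391 to 0.485) and 0.0634 in untreated serum (0.0558 to 0.0717). The 3 lower members and the 1 higher member left the family's summed share at 12.0% in FK506 and 17.8% in untreated serum.

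let-7 genes lie in clusters. Mirlet7b and Mirlet7c-2 lie together on the plus strand at chr15:85706616-85707346 (GRCm38), and let-7b-5p and let-7c-5p had log2 ratios of 1.47 and 0.50. Mirlet7a-1, Mirlet7f-1 and Mirlet7d lie on the minus strand at chr13:48536024-48538260, and their 5p arms were at -1.31, -1.16 and -0.66. The 3p arm of let-7d, from the same hairpin, was at 0.52. let-7a-5p, let-7c-5p and let-7f-5p each have a further locus elsewhere, so their reads cannot be assigned to 1 cluster. let-7 miRNAs differ from each other by as little as 1 base, and reads matched with mismatches or shortened at the 3′ end can pass between entries.

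**Figure D3:**
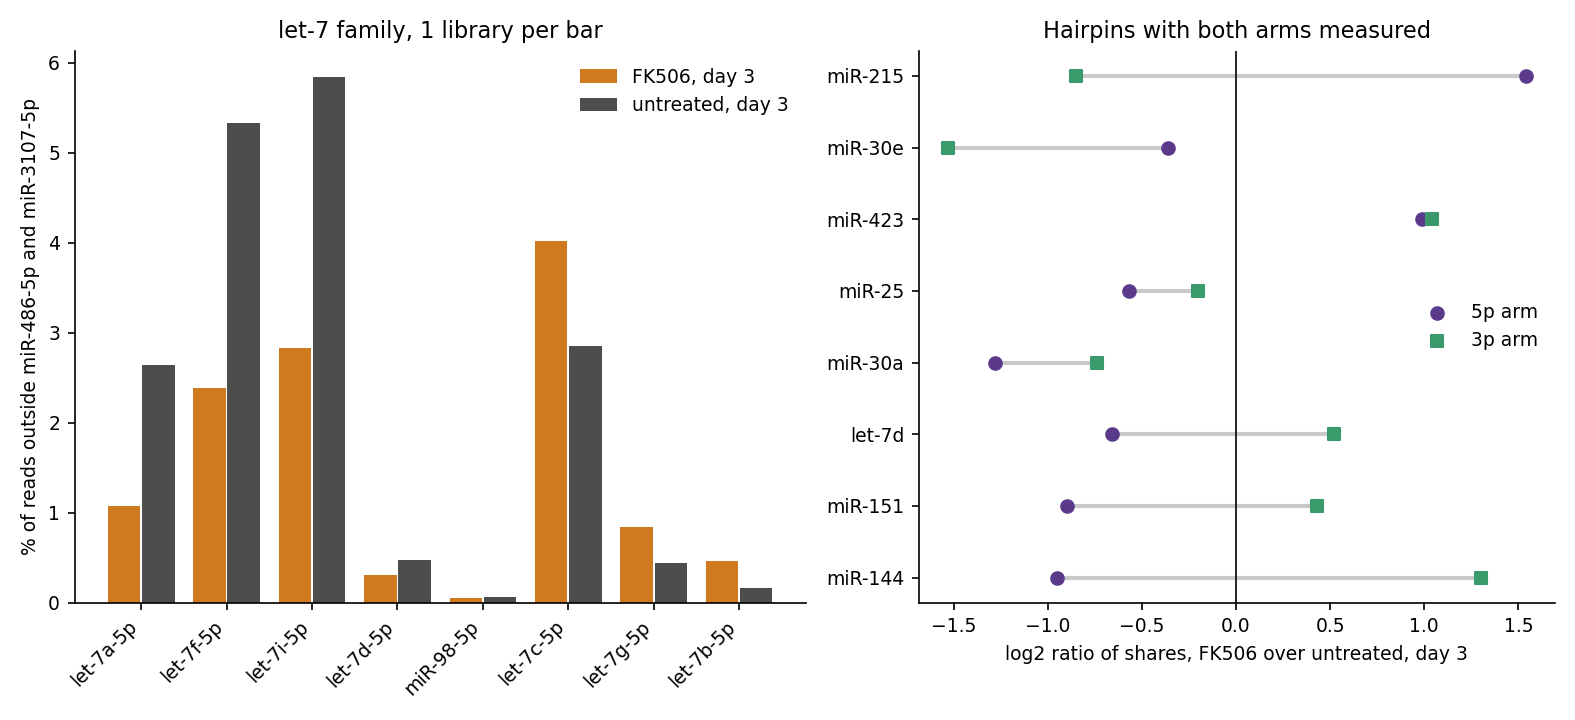
Left, share of the remaining reads for 8 let-7 family members in FK506 and untreated serum at day 3, 1 library per bar; let-7b-5p is higher in FK506, and let-7i-5p, let-7f-5p and let-7a-5p are lower. Right, log2 ratios of FK506 over untreated for the 5p and 3p arms of 8 hairpins; the arms of miR-215, miR-144, let-7d and miR-151 lie on opposite sides of 0.

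Both arms of a hairpin come from 1 transcript, and matched by name 8 hairpins had both arms measured among the 97. In 4 of the 8 the arms had ratios of the same sign, and in 5 the log2 ratios differed by at least 1. The widest gap was in miR-215, whose 5p arm maps to chr1:185313610-185313630 (plus strand, GRCm38) in an exon of the noncoding 2010103J01Rik on the same strand and an intron of Iars2 on the opposite strand. The 5p arm was at 1.54, while the 3p arm was at -0.85, with 25 reads in FK506 and 69 in untreated serum. The 3p strand of the red cell miRNA miR-144 was at 1.30, with 69 reads in FK506 and 43 in untreated serum. Its 5p strand was at -0.95, with 53 reads in FK506 and 157 in untreated serum. For miR-151 the 5p arm was at -0.90 and the 3p arm at 0.43, and for miR-30e the arms were at -0.36 and -1.53. Outside these 8, miR-181a-2-3p was at 0.62 and miR-181a-5p, which comes from that hairpin and from a further one, at -1.20. The arms of miR-423 were close, at 0.99 and 1.04, with the 5p arm at 5478 reads in FK506 and 4228 in untreated serum.

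Among the 81 sequence-matched miRNAs, 15 seeds were shared by 2 or more, covering 42 miRNAs. In 12 of these 15 groups all members had share ratios of 1 sign, among them the miR-199 pair with its identical counts. Of all measured miRNAs, 50 had ratios above equality and 47 below, and most of the groups were pairs, which can easily share a sign. Near-identical relatives can also share reads. Whether a shared seed went with a shared sign was not tested. The let-7 seed GAGGUAG was the only seed with members past 2-fold in both directions. The miR-221 and miR-222 pair was at 0.69 and 0.09, the miR-130 pair at 0.56 and 0.46, and the miR-26 pair at -0.97 and -0.38. The GC content of the mature sequence had a median of 47.7% in the 14 matched higher miRNAs and 42.5% in the 10 matched lower ones, against 45.5% in the 57 others. Across the 81 miRNAs, which share 2 libraries and are not independent, the ratio and the GC content had a Spearman correlation of 0.23. The part of base composition in the differences was not tested. Median length was 22 nt on both sides.

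Counts in the lists of cell types and families are small, and over all 97 miRNAs 18.6% were past 2-fold higher and 11.3% lower, so most of the counts below are near that background. The red cell list had 2 higher and 1 lower of 10 measured members outside the pair, and a median of -0.13. Its abundant members miR-92a-3p and miR-25-3p parted: miR-92a-3p had 19852 reads in FK506 and 19175 in untreated serum, or 19.0% against 12.0%, while miR-25-3p had 8768 reads in FK506 and 15427 in untreated serum, or 8.38% against 9.63%. The passenger strand miR-486-3p had 2422 reads in FK506 and 1754 in untreated serum, with a log2 ratio of 0.51 on the library-total scale and 1.11 with TMM. Its partner miR-486-5p was at 0.01 on the library-total scale and 0.62 with TMM. The lymphocyte list had 1 higher, miR-150-5p, and 1 lower, miR-181a-5p, of 8, with a median of -0.38. The myeloid and platelet list had 2 higher and 0 lower of 6, with a median of 0.49, which became -0.09 scaled to the library total. In it miR-191-5p was at -0.21 and miR-22-3p at -0.48.

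Of the remaining lists the liver list had 0 past 2-fold of 3, with a median of 0.45 that became -0.13 scaled to the library total. The hepatocyte miRNA miR-122-5p was below the floor, with 30 reads in FK506 and 5 in untreated serum, a ratio of 9.19 with an interval of 3.53 to 30.3. The miR-17 to miR-92 list had 0 past 2-fold of 4 (median -0.09), and the list of miR-26, miR-29 and miR-101 families 0 of 5 (median -0.12). The list of miR-10, miR-99 and miR-125 had 1 higher of 5 and a median of -0.62. In its chromosome 17 cluster miR-99b-5p was at 1.43, with 337 reads in FK506 and 191 in untreated serum, and miR-125a-5p at 0.66, while miR-125b-5p was at -0.86. The Dlk1-Dio3 list had 1 higher and 1 lower of 4 (median -0.35), and 31 of its 35 entries were below the floor. The muscle list had 1 measured member, miR-133a-3p, with 618 reads in FK506 and 945 in untreated serum and a ratio of 1.00 (0.904 to 1.11). The list of miR-15, miR-103 and miR-107 had 1 higher and 1 lower of 5 (median -0.04). Lists with fewer than 3 measured members have no median: the neuron and glia list had 1 higher of 1, the other arms of the miR-30 family 1 lower of 2, the miR-23, miR-27 and miR-24 list 0 past 2-fold of 2, and the miR-378 list 0 of 1. In the miR-378 list miR-378a-3p was at -0.52, and miR-378c, below the floor, had 40 reads in FK506 and 4 in untreated serum (15.3-fold, 5.54 to 58.9).

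**Figure D4:**
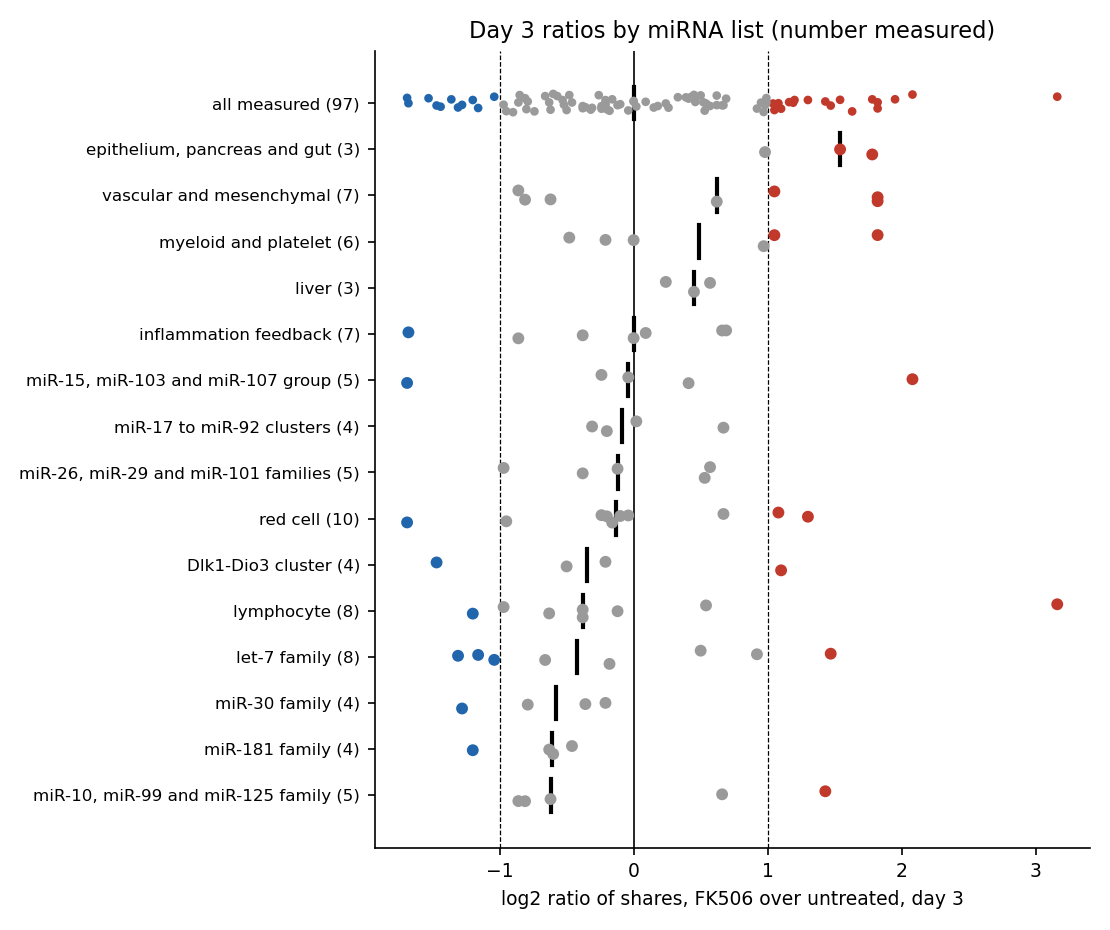
log2 ratio of shares, FK506 over untreated at day 3, for the measured members of 15 lists and for all 97 miRNAs, with list sizes in brackets; black bars are medians, dashed lines mark 2-fold, red points are past 2-fold higher and blue points past 2-fold lower. The highest median, 1.54, rests on 3 miRNAs, and most lists have points on both sides of 0.

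The same contrast at days 7 and 14 comes from 4 libraries that the day 3 comparison does not use. Of the 18 miRNAs past 2-fold higher at day 3, 16 had a log2 ratio above 0 at day 7, where 71.1% of all 97 did, and 14 at day 14, where 56.7% did. Of the 11 lower ones, 6 were below 0 at day 7, against 28.9% of all, and 6 at day 14, against 43.3%. With TMM scaling 12 of 18 were above 0 at each later day, against 47 of all 97 at day 7 and 43 at day 14. Below 0 with TMM were 9 of 11 at day 7 and 8 at day 14, against 50 and 54 of all 97. Above 0 at both later days on the share scale were 13 of the 18, against 40 of all 97, and with TMM 7 of the 18, against 25 of all 97. The 13 included miR-150-5p, miR-107-3p, miR-199a-3p, miR-205-5p and miR-215-5p. Below 0 at both later days were 4 of the 11, against 13 of all 97, and with TMM 7 of the 11, against 32 of all 97. The 4 were miR-181a-5p, let-7i-5p, let-7f-5p and let-7a-5p. The share of miR-150-5p was 5.29%, 3.81% and 2.52% in FK506 at days 3, 7 and 14, against 0.592%, 0.143% and 0.393% in untreated serum, so the arms did not overlap. The share of let-7a-5p was 1.07%, 1.16% and 0.566% in FK506, against 2.64%, 5.95% and 2.68% in untreated serum, again without overlap. The arms did not overlap for 8 of the 18 higher miRNAs, with FK506 above untreated for 12 of all 97. Of the 11 lower ones 3 did not overlap, with FK506 below untreated for 9 of all 97. Overlap includes the day 3 libraries by which these miRNAs were chosen, so nothing is read from it.

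At day 3, single libraries also stood apart from the other 5. For miR-146b-5p the untreated day 3 share of 0.208% was the highest of the 6, against 0.120% and 0.0511% in untreated serum at days 7 and 14 and 0.0543% and 0.0966% in FK506 at those days. For miR-30a-5p the FK506 day 3 share of 1.98% was the lowest of the 6, and the log2 ratios at days 7 and 14 were 0.21 and 0.31. For miR-205-5p the FK506 day 3 share of 0.107% was the highest of the 6, although the arms did not overlap over the 3 days and the day 7 log2 ratio was 2.33. let-7b-5p had the highest share of the 6 in FK506 and the lowest in untreated serum at day 3, and its later ratios were 0.09 and 0.27. In all, the FK506 day 3 share was the highest of the 6 for 7 of the 18 higher miRNAs (15 of all 97) and the lowest for 2 of the 11 lower ones (3 of all 97). The untreated day 3 share was the lowest of the 6 for 4 of the 18 (6 of all 97) and the highest for 5 of the 11 (10 of all 97). Because the 29 were chosen by these 2 libraries, nothing is read from these counts.

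**Figure D5:**
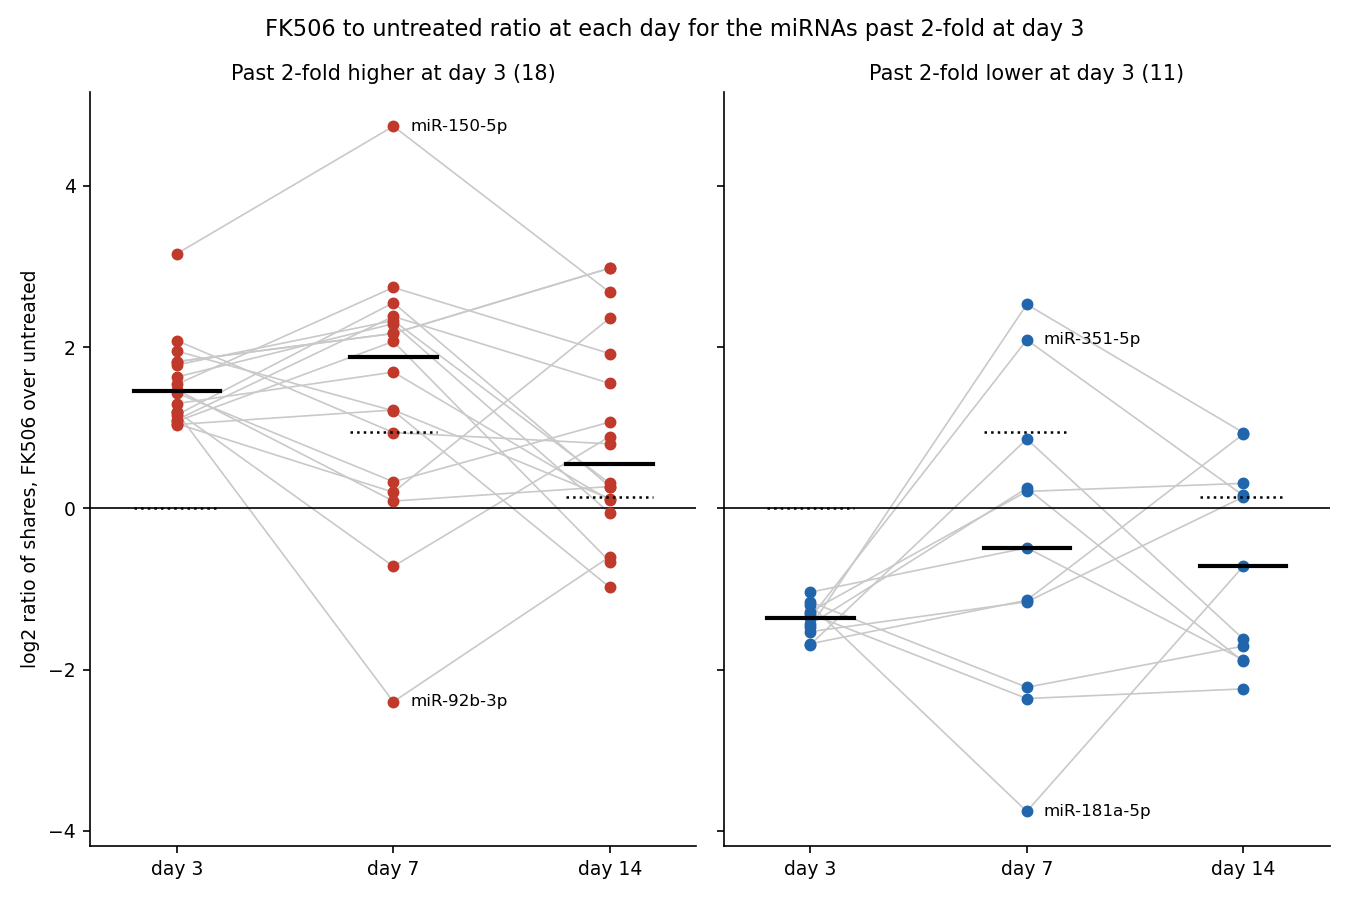
log2 ratio of shares, FK506 over untreated, at days 3, 7 and 14 for the 18 miRNAs past 2-fold higher (left) and the 11 past 2-fold lower (right) at day 3, with 1 library per group and day. Solid bars are medians of the points and dotted bars medians of all 97 miRNAs; day 3 values are past 2-fold by choice, and later values spread on both sides of 0.

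Libraries of the same arm also differed between days, which gives a scale for the 29 of 97 miRNAs past 2-fold either way between the arms at day 3 (29.9%). FK506 at day 7 was past 2-fold of FK506 at day 3 for 7 (7.22%) and FK506 at day 14 for 22 (22.7%). Untreated serum at day 14 was past 2-fold of untreated serum at day 3 for 15 (15.5%). Untreated serum at day 7 was past 2-fold of it for 65 (67.0%), with miR-181a-5p alone at 31.8% of the remaining reads of that library. The day 3 comparison does not use that library.

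Near the floor, miR-19b-3p entered with 33 reads in FK506 and 50 in untreated serum, and miR-1981-5p with 53 and 21. Just outside were miR-210-3p with 34 and 49 reads and miR-27a-3p with 42 and 15, a ratio of 4.29 (2.33 to 8.33). In all, 260 entries with a read stayed below the floor and held 1.36% of the remaining reads in FK506 and 0.948% in untreated serum. Of these, 80 were seen in FK506 alone, with at most 16 reads, and 43 in untreated serum alone, with at most 8. None of the 97 measured miRNAs was at 0 in either library.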

How the data were processed

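The deposited values are unnormalized counts of reads for each mature miRNA, as the whole numbers and unequal totals of the table show. Per the labels' protocols, gel-selected small RNA was ligated to linkers, barcoded and sequenced as 50 bp single reads, and reads of 15 to 29 nt were matched to mouse miRNAs of miRBase with Bowtie and BLAST. Versions, mismatch settings for that match, the build and how reads with several matches were counted remain unstated (not given in the sources used here), so near-identical entries can share reads. Counts were read as deposited and 1 library stood for each group.

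Shares were taken of the reads outside miR-486-5p and miR-3107-5p. A miRNA was compared with 50 or more reads in 1 of the 2 libraries and was called past 2-fold where its log2 ratio reached 1 or -1. Intervals are exact 95% (Clopper-Pearson) and cover counting error only. A count of 0 was set to a floor of 3 reads. TMM factors came from edgeR 4.0.16 over 153 miRNAs kept by filterByExpr with a minimum count of 10, and median-of-ratios factors from DESeq2 1.42.0, in R 4.3.3; neither tool was used for a test. The ratio calculation was run on simulated counts with known changes, which checks the arithmetic only. The simulated counts held counting error, but no spread between animals and no reads shared between entries. The genes' positions come from RefSeq and GENCODE on GRCm38. In all, 12 alternatives were tried. The 20 miRNA lists and the members were chosen with earlier results of these data known. Named are the 12 highest and 12 lowest ratios past 2-fold, the 10 most abundant entries, the 3 most abundant members of each list and hairpin arms that differ by 1 or more; any other named miRNA was picked with its values already known.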

Additional observations from a re-analysis of the deposited data

Results flagged for a closer look

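For some miRNAs the FK506 to untreated ratio was past 2-fold in opposite directions at different days. For miR-541-5p the log2 ratio of shares was -1.47 at day 3 and 2.53 at day 7, and for miR-92b-3p 1.19 and -2.4. At day 7 miR-541-5p had only 18 reads in FK506 and 9 in untreated serum. The day 7 median over all 97 miRNAs was 0.95 on the share scale and -0.13 with TMM. With TMM the day 7 log2 ratio was 1.46 for miR-541-5p and -3.47 for miR-92b-3p. The flagged miR-351-5p had a log2 ratio of -1.36 at day 3 and 2.09 at day 7, where it was 1.02 with TMM. Its share was 0.0383% and 0.0485% in FK506 at days 3 and 7, against 0.0980% and 0.0114% in untreated serum, so the untreated libraries moved more than the FK506 ones. These differences between days were not tested.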

How the results depend on the processing

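Past 2-fold were 18 higher and 11 lower miRNAs. Scaling to the library total gave 7 and 30, and shares outside the 10 most abundant entries 11 and 20. A floor of 20 reads compared 124 entries and gave 28 higher and 12 lower. A floor of 1 read compared 259 entries and gave 64 and 23. Both floors compare more entries than the main setting, so these counts cannot be set directly against 18 and 11. With the whole interval past 2-fold, 10 and 5 remained. These alternatives change the scale, the entries counted or the calling rule. On the library-total scale all 11 lower miRNAs and 7 of the 18 higher ones stayed past 2-fold. A change of scale moves every log2 ratio by 1 amount, so a miRNA past 2-fold could not change sign and this is no sign of stability. Of 15 list medians, 5 changed sign in at least 1 alternative. No paired analysis was possible because each group holds 1 library, and for the same reason no replicate could be left out. Depth outside the dominant pair limits low miRNAs most.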
